A study of Mus musculus with 4 samples.

Results

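The small heat shock proteins and alpha crystallins were followed in whole lenses of newborn mice through 15 probe sets, sets of short probes that each measure 1 RNA, of the 45101 on the array. They were all probe sets whose platform annotation names exactly 1 of 8 genes, namely Cryaa, Cryab, Hspb1, Hspb2, Hspb3, Hspb6, Hspb7 and Hspb8. The study compared wild-type mice with mice lacking Hsf4, the gene of heat shock transcription factor 4, to ask which RNAs of the lens depend on it. There were 2 arrays per group, numbered 1 and 2, and per the labels all lenses came from males of strain background 129S3 at postnatal day 0.5, with no treatment. The sources used here do not say how the Hsf4 allele was made or whether animals were pooled. The same sources do not say that the samples of a group are of separate animals, so the p-values measure array-to-array spread that may in part be technical. Xist and Y-linked genes differed between the samples of each group, as given below.

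Small heat shock proteins are chaperones that share the alpha-crystallin domain, build large oligomers and hold unfolding proteins in a soluble state without using ATP, until chaperones of the HSP70 family can refold them. In the lens the products of Cryaa and Cryab together form alpha-crystallin, an abundant protein of the fibre cells that keeps other lens proteins from aggregating. Cryab and several of the Hspb genes are also active in heart and skeletal muscle. Heat shock factors bind DNA at repeats of the unit GAA placed in alternating orientation, and Hsf4 is the member of that family best known for its role in the lens.

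Because such units can lie near the start of heat shock genes, RefSeq sequences (GRCm38.p6) around the annotated starts of the members were searched for them, from 250 bases before to 50 bases after each start. Of the 8 genes, 6 were matched by gene ID, Hspb6 with more than 1 start, which gave 7 windows; Cryab and Hspb2 have no entry there. A pair of inverted units, spelled GAANNTTC, or in the other arrangement TTCNNGAA, was found in 4 of the 7 windows, and in 15.1% of all 32851 windows of this length. Both motifs read the same on either strand. All matches in the members were GAANNTTC, which 7.86% of all windows hold, and none was part of a run of 3 alternating units, which 0.603% of all windows hold on either strand. A match describes the letters and shows no binding. The windows with a match are shown 5′ to 3′ on the strand of the gene, with the matches in capitals. They run from 250 bases before the start to 20 bases after it. In the comparison below their genes had values of either sign. None passed the threshold used there, and the sign for Hspb6 changed with the scaling of the arrays. The Cryaa window is shown with them as that of a major lens protein; its capitals mark TGCTGAC, part of a site for the Maf factors of the lens, which 4.67% of all windows hold on either strand.
Hspb1 chr5:135887669-135887938: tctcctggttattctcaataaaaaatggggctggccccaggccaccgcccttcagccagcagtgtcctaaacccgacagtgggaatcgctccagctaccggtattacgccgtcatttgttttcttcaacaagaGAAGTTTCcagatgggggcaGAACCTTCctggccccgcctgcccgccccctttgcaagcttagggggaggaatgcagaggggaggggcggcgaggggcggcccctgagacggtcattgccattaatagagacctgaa
Hspb8 chr5:116422845-116423114: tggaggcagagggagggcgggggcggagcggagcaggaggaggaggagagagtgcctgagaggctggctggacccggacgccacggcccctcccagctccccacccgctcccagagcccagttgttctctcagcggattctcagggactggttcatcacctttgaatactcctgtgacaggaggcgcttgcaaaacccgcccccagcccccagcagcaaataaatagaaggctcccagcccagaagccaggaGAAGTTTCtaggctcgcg
Hspb3 chr13:113663657-113663926: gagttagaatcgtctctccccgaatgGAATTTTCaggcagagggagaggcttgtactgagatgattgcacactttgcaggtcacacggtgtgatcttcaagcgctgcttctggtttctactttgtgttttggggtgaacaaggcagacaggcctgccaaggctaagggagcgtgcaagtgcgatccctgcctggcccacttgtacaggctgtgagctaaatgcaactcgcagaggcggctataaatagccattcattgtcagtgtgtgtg
Hspb6 chr7:30553051-30553320: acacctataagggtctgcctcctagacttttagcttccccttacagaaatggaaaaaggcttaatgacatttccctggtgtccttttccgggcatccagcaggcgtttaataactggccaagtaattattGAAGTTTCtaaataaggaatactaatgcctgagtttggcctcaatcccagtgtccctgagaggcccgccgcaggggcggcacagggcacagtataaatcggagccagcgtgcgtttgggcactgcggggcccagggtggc
Cryaa chr17:31677681-31677950: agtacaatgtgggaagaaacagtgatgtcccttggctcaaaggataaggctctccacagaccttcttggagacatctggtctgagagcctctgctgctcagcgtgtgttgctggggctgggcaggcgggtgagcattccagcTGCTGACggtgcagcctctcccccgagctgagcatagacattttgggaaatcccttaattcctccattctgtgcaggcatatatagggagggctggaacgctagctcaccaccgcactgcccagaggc
The minus strand carries Hspb8 and Hspb3, the plus strand the other genes shown. Hspb1 had matches at 117 to 110 and at 97 to 90 bases before its start, GAAGTTTC and GAACCTTC. Hspb6 had GAAGTTTC at 120 to 113 bases before the start shown, Hspb8 had it at bases 3 to 10 of the transcript, and Hspb3 had GAATTTTC at 224 to 217 bases before its start. In Cryaa the capitals lie 108 to 102 bases before the start.

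The arrays differed in ways that touch the values below. As deposited, the medians of the arrays ran from 6.58 on labelled knockout array 2 to 21.4 on wild-type array 1, and quantile normalization was used to give all 4 the same distribution. Levels below are normalized intensities, and a log2 change is the labelled knockout mean of log2(intensity + 16) less that of wild type, which understates changes of dim genes. The number of arrays limits the precision. The 3 control probe sets for 18S ribosomal RNA measured at most 16.7 on the arrays numbered 1. On the arrays numbered 2 that for the 5′ region measured 6898 in wild type and 7309 in the labelled knockout, while those for the middle and 3′ regions measured 432 and 349 in wild type and 3636 and 3228 in the labelled knockout. The probe set for Hsf4 itself measured 505 and 138 on the wild-type arrays and 1212 and 413 on the labelled knockout arrays. It was thus not dimmer in the knockout, and since the sources used here do not place it relative to the deleted part, it checks nothing about the labels, to which every direction below refers. Xist, expressed from the inactive X chromosome of females, measured 605 on wild-type array 1 and 260 on labelled knockout array 1. On the arrays numbered 2 it measured 58.0 and 9.01, while the labels call all lenses male. The Y-linked gene Eif2s3y measured 60.4 and 101 on wild-type and labelled knockout arrays 1, against 208 and 161 on the arrays numbered 2. The dimmer Y-linked Uty measured 9.42 and 18.4, against 37.3 and 36.6. Which sexes the samples hold was not tested.

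None of the members passed limma's threshold of an adjusted p of 0.05 (Benjamini-Hochberg over 22519 probe sets). Across all probe sets tested 4 passed, or 0.0178%, which were 1 each of Rpgrip1 and Psmd6, higher in the knockout, and of the muscle genes Actc1 and Myl1, lower. Of the 15 member probe sets, 9 from 7 genes had a mean above the filter, an intensity of about 13.0, and were tested. The other 6 were all 3 of Hspb7, 2 of Hspb8 and 1 of Cryab. Without adjustment, p was under 0.05 for 2 of the 9, both of Hspb1 and both lower, while 2.33% of all probe sets had such a p, 1.33% with the knockout lower. The groups did not overlap for 8 of the 9, with the knockout lower for 5 and higher for 3, against 27.0% of all probe sets tested, 14.4% lower and 12.6% higher. These 8 come from 6 genes and are not independent. The count depended on the scaling, being 1 with values as deposited and 4 with median centring or trimmed-mean scaling. It was 5 with cyclic loess and 6 with centring on the beta and gamma crystallins. The share of all probe sets without overlap was taken only under quantile normalization, so these other counts have none beside them. The median log2 change over the brightest probe sets of the 8 genes was 0.00, as it was over all genes with a probe set.

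**Figure D1:**
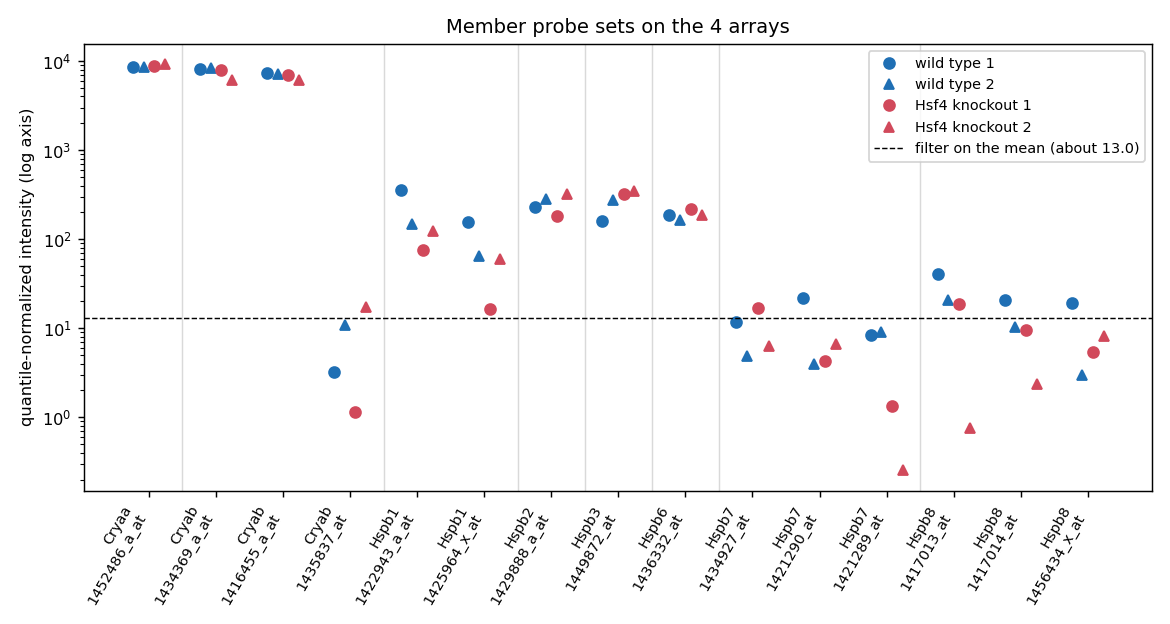
Quantile-normalized intensity (log axis) of the 15 member probe sets, grouped by gene, on the 4 arrays; colour gives the group, shape the array number, and the dashed line the filter on the mean at about 13.0. Both probe sets of Hspb1 are highest on wild-type array 1, and those of Hspb7 lie around or below the line.

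The alpha crystallins were among the brightest RNAs on all 4 arrays, and neither passed the threshold. Cryaa, the lens-restricted subunit (RefSeq GRCm38.p6 chr17:31677931-31681730), had 1 probe set, which measured 8512 on both wild-type arrays, and 8768 and 9184 on labelled knockout arrays 1 and 2. The knockout values were the higher ones, by little. The log2 change was 0.08 (SE 0.14, 95% interval -0.25 to 0.40, limma adjusted p = 1). In quantile normalization a value follows from its rank, and Cryaa ranked between 4 and 9 from the top on every array, so its normalized values could hardly move. Scalings that do not work by rank gave other sizes, 0.61 with the trimmed mean and 0.44 with cyclic loess, both outside that interval, but -0.017 with values as deposited, and no direction is given. The deposited intensities were 10860 and 6811 on the wild-type arrays and 10721 and 6739 on the labelled knockout arrays, nearly equal within each number.

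Cryab, the alpha-crystallin subunit that many other tissues also make (chr9:50745951-50756636), had 2 bright probe sets. The brighter (1434369_a_at) measured 8041 and 8372 on the wild-type arrays and 7865 and 6097 on labelled knockout arrays 1 and 2. The groups did not overlap, and labelled knockout array 2 was the low one. The log2 change was -0.24 (SE 0.17, interval -0.63 to 0.14, limma adjusted p = 1). Between the arrays numbered 1 it was -0.03 and between those numbered 2 it was -0.46, and it was -0.06 without labelled knockout array 2. The other (1416455_a_at) measured 7377 and 7058 in wild type and 6898 and 6070 in the knockout, a log2 change of -0.16 (SE 0.16, limma adjusted p = 1). Both turned positive with trimmed-mean scaling, at 0.17 and 0.24, and with cyclic loess, at 0.01 and 0.09, so no direction is given for Cryab. The remaining, dim probe set (1435837_at) measured 3.24 and 10.7 in wild type and 1.13 and 17.5 in the knockout, below the filter, and followed the array number and not the group.

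The deposited values of Cryab over Cryaa on the same array do not depend on a constant factor per array. They can depend on the shape of an array's distribution, and these shapes differed. Wild-type array 2 and labelled knockout array 2 had deposited Cryaa values of 6811 and 6739 but array medians of 10.5 and 6.58. The part of this trait in the ratios was not tested. For the brighter Cryab probe set this ratio was 0.955 and 0.980 on the wild-type arrays, and 0.896 and 0.563 on labelled knockout arrays 1 and 2. For the other it was 0.900 and 0.817, against 0.785 and 0.558. The groups did not overlap in either, and labelled knockout array 2 stood apart from the other 3. The mean log2 ratio differed by -0.45 and -0.37, and with 2 arrays against 2 no exact permutation test can go below a two-sided p of 0.333. The ratio shows only that the 2 signals changed unequally. The deposited intensity of Cryab was at least 45.5% of its array's maximum, and whether such bright signals were compressed was not tested.

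Cryab and Hspb2 are neighbours that start head to head, and Hspb2 (chr9:50751072-50752354) lies within the span annotated for Cryab. Hspb2, known as a partner of the myotonic dystrophy kinase in muscle, measured 230 and 286 on the wild-type arrays and 180 and 324 on labelled knockout arrays 1 and 2. Its groups overlapped, and it was higher on the arrays numbered 2 in both groups. The log2 change was -0.08 (SE 0.35, interval -0.85 to 0.70, limma adjusted p = 1). It was -0.32 between the arrays numbered 1 and 0.17 between those numbered 2. It was lower with values as deposited (-0.68), median centring (-0.51) and crystallin centring (-0.56). In these scalings the median of all probe sets tested was also lower, at -0.42, -0.25 and -0.30. The ratio of Hspb2 to Cryaa on the same array was 0.0328 and 0.0312 in wild type against 0.0232 and 0.0162 in the knockout. The ratios of Hspb3 and Hspb6 to Cryaa were also lowest on labelled knockout array 2, at 0.0173 and 0.00901. The deposited median of that whole array was the lowest as well.

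Hspb1, which stabilises actin filaments and is induced in many cells by heat (chr5:135887919-135889563), had the lowest log2 changes among the members tested with all arrays and the offset of 16; with an offset of 1, or without labelled knockout array 1, Hspb8 was lower. Its brighter probe set (1422943_a_at) measured 354 and 147 on wild-type arrays 1 and 2, and 75.3 and 124 on labelled knockout arrays 1 and 2. The groups did not overlap, but wild-type array 2 lay closer to the knockout arrays than to wild-type array 1. The log2 change was -1.12 (SE 0.43, interval -2.07 to -0.16, unadjusted p = 0.0269, limma adjusted p = 1). It was -2.02 within number 1 and -0.21 within number 2. The second probe set (1425964_x_at), of a kind in which some probes can also match other sequences, measured 156 and 65.0 in wild type and 16.3 and 59.5 in the knockout. It had the same order of the arrays and a log2 change of -1.26 (SE 0.48, limma adjusted p = 1). Without wild-type array 1 the changes were -0.52 and -0.66. Without labelled knockout array 2, with the lone knockout array assumed to vary like the wild-type arrays, they were -1.45 and -2.00, and the second probe set then passed limma's threshold (adjusted p = 0.00183), as did 95 of all probe sets. Both probe sets stayed below 0 under all 5 other scalings, from -1.10 to -1.65 and from -1.22 to -1.78.

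Hspb8, a partner of Bag3 in the removal of misfolded proteins by autophagy (chr5:116408491-116422864), was dim on all arrays. Only 1417013_at of its 3 probe sets was above the filter, and it measured 40.8 and 20.9 on the wild-type arrays, and 18.8 and 0.763 on labelled knockout arrays 1 and 2. Wild-type array 2 and labelled knockout array 1 were close, and the knockout was lower mostly through its array 2. The log2 change was -0.92 (SE 0.42, interval -1.88 to 0.03, unadjusted p = 0.0567, limma adjusted p = 1). It was -0.71 between the arrays numbered 1 and -1.14 between those numbered 2. Without labelled knockout array 1 it was -1.34 and passed limma's threshold (adjusted p = 0.00874). That fit sets 1 knockout array against the spread of the wild-type arrays alone, and 663 of all probe sets passed in it. Without labelled knockout array 2 it was -0.43. Being dim, it depended on the offset added before the log, with -2.36 at an offset of 1 and -0.37 at 64. The dimmer probe set 1417014_at had the same order of the arrays, with 20.7 and 10.2 against 9.55 and 2.38, and the dimmest, 1456434_x_at, had 19.2 and 3.00 against 5.42 and 8.26, with groups that overlapped.

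Hspb3, Hspb6 and Hspb7, which are known mainly from heart and skeletal muscle, did not pass the threshold or were too dim to test. Hspb3 (chr13:113662896-113663676) measured 162 and 276 on the wild-type arrays and 318 and 347 on the labelled knockout arrays. The groups did not overlap, with wild-type array 1 the low one. The log2 change was 0.61 (SE 0.33, interval -0.13 to 1.35, limma adjusted p = 1). It was 0.91 between the arrays numbered 1 and 0.31 between those numbered 2. It was 0.26 without wild-type array 1. It was above 0 under all 5 other scalings but ranged down to 0.01 with values as deposited. Hspb6, a small heat shock protein of smooth and cardiac muscle (chr7:30552535-30555443), measured 187 and 162 in wild type and 217 and 188 in the knockout, a narrow range on all arrays. Its log2 change was 0.20 (SE 0.30, interval -0.47 to 0.86, limma adjusted p = 1), and it was below 0 with values as deposited (-0.38), median centring (-0.21) and crystallin centring (-0.26).

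Hspb7, a small heat shock protein of the heart (chr4:141420779-141425310), had 3 probe sets that were all below the filter. The brightest (1434927_at) measured 11.7 and 4.87 on the wild-type arrays and 17.1 and 6.27 on the labelled knockout arrays, with groups that overlapped. The next (1421290_at) measured 21.8 and 4.00, against 4.29 and 6.60. The dimmest (1421289_at) measured 8.37 and 9.11, against 1.34 and 0.254, with groups that did not overlap. The 3 probe sets thus had log2 changes of either sign, from -0.56 to 0.17, at intensities where none was tested with the filter. In limma without the filter, the unadjusted p was 0.615, 0.337 and 0.0145 in that order, and none passed the threshold.

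**Figure D2:**
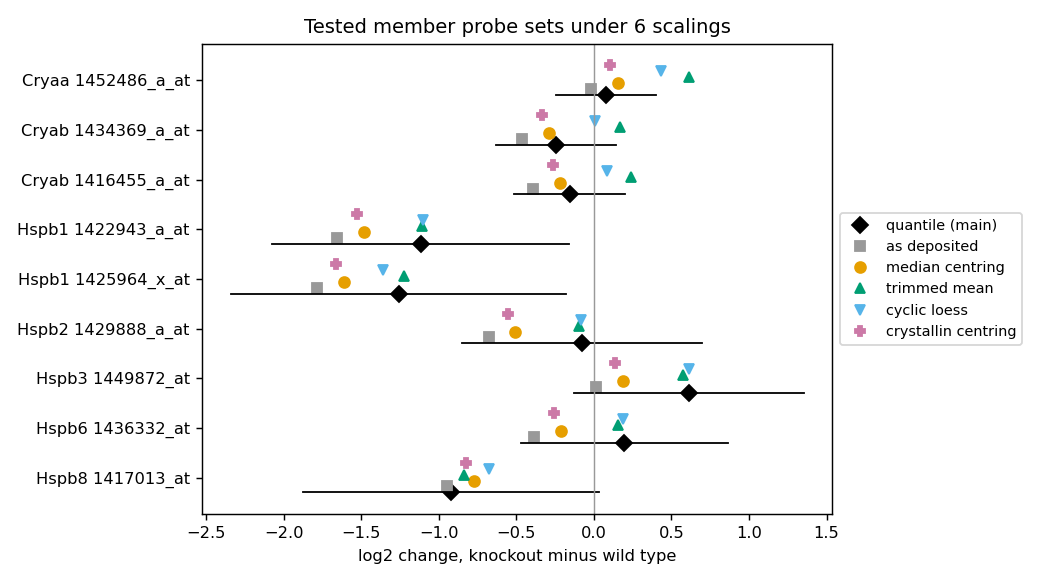
Log2 change, knockout minus wild type, of the 9 member probe sets tested under quantile normalization (diamonds, with limma's 95% interval as a line) and 5 other scalings of the arrays. Hspb1, Hspb2 and Hspb8 lie below 0 under all 6 scalings and Hspb3 above 0, while Cryaa, Cryab and Hspb6 lie on both sides. Hspb2 is only at -0.08 with quantile normalization, -0.10 with trimmed-mean scaling and -0.09 with cyclic loess. Its sign turned without wild-type array 2 or without labelled knockout array 1.

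The scalings did not leave the bulk of RNAs at the same place. The median log2 change of all probe sets tested was -0.42 with values as deposited, -0.25 with median centring and -0.30 with centring on the beta and gamma crystallins, against -0.01 with quantile normalization. The median of the 8 member genes moved with it, to -0.42, -0.25 and -0.30. With trimmed-mean scaling the members had 0.16 and all probe sets 0.01. The beta and gamma crystallins, which alpha-crystallin keeps in solution, had log2 changes from -0.26 to 0.17 for the 12 genes tested, with a median of -0.01, and 0 of the 12 passed limma's threshold or had an unadjusted p under 0.05. As with Cryaa, the rank of such bright probe sets largely sets their normalized values, so this is no measured lack of change.

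In bulk tissue, fewer cells of a type and less RNA per cell cannot be told apart, and markers of striated muscle and of fibroblasts moved with the groups. Markers of striated muscle summed to 3312 and 1725 on wild-type arrays 1 and 2, and to 273 and 315 on labelled knockout arrays 1 and 2. Of the 16 muscle markers tested, 2 passed limma's threshold, Actc1 and Myl1, both lower in the knockout. The median of the 16 was -2.09 on the log2 scale, and 15 were lower on the knockout array of either number. Acta1, skeletal actin and the brightest of them, measured 909 and 370 against 38.7 and 53.1. The fibroblast markers summed to 1295 and 1901 in wild type and 467 and 752 in the knockout, with a median log2 change of -1.41. All 8 of 8, of which Pdgfra is also on the lens epithelium list used below, were lower on the knockout array of either number. In limma 0 passed the threshold, though 6 had an unadjusted p under 0.05. Of all probe sets tested, 27.4% were lower on the knockout array of either number, and 1.33% were lower with such a p. No marker of either list was at 0 on any array. The Hspb1 values had the same rank order over wild-type array 1, wild-type array 2, labelled knockout array 2 and labelled knockout array 1 as the muscle sums. That order is not particular to muscle genes, as Dnajb2 and Krt15, given below, had it too. The fibroblast sums had another order, with wild-type array 2 the highest. Hspb3, known from the same muscle, had the reverse order of the groups. The part of muscle or connective tissue RNA in the Hspb1 and Hspb8 values was not tested.

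**Figure D3:**
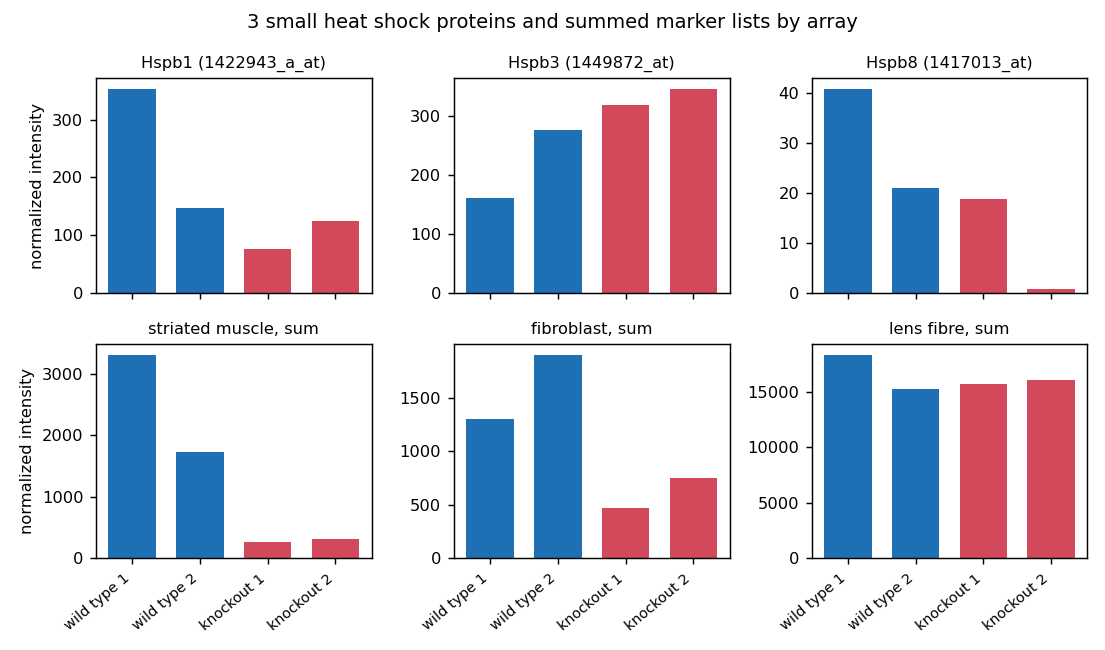
Normalized intensity on each of the 4 arrays for Hspb1, Hspb3 and Hspb8 (top) and the summed intensity of the striated muscle, fibroblast and lens fibre lists (bottom), wild type in blue and labelled knockout in red. Hspb1 goes from 354 on wild-type array 1 to 75.3 on labelled knockout array 1, and the muscle sum from 3312 to 273, while the lens fibre sum lies between 15258 and 18370; without Bfsp2 that sum is 13189 on labelled knockout array 2.

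Among markers of the lens itself 0 of 7 fibre and 0 of 7 epithelium genes passed limma's threshold, with a median log2 change of -0.05 in each list. The fibre median covers genes that differed from one another. The bright Lim2 had a log2 change of -0.11, with groups that overlapped. Mip measured 4228 and 3670 in wild type and 4896 and 4746 in the knockout (log2 0.29), without overlap. Bfsp1, filensin of the beaded filament, measured 5220 and 3785 in wild type and 2186 and 2060 in the knockout (log2 -1.06), and Dnase2b, the nuclease of fibre cell nuclei, had -1.25. These are the 2 of 7 with an unadjusted p under 0.05, where 1.33% of all probe sets were lower with such a p, and 0 of 7 epithelium genes had one. Bfsp2, the partner of filensin, measured 2907 on labelled knockout array 2 against 60.1 to 268 on the other arrays. The smooth muscle and pericyte list had a median of -0.44, neural retina -0.73, macrophages -0.20, endothelium 0.16, pigment cells 0.32 and erythroid cells 1.03, and none of their genes passed. Between the arrays numbered 1 and those numbered 2 the median was 0.10 and -1.38 for retina, -0.25 and 0.68 for endothelium, and 0.41 and 1.73 for erythroid cells.

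None of the listed chaperones, cochaperones and regulators of the HSP70 and HSP90 machinery passed the threshold, and more of them had lower than higher values in the knockout. Of 24 such genes 23, all but Hsp90ab1, had a probe set that names only them, and 21 were tested. On the knockout array of either number 12 were lower and 2 were higher, against 27.4% and 25.9% of all probe sets tested. In limma 0 passed and 2 had an unadjusted p under 0.05, both lower. The groups did not overlap for 9, with 8 lower and 1 higher, where 14.4% and 12.6% of all probe sets tested did so. The median log2 change was -0.23, against -0.01 over all probe sets tested, and it was -0.12 without wild-type array 1, -0.15 without wild-type array 2 and -0.12 with an offset of 64. Dnajb2, a J-domain cochaperone, measured 394 and 229 in wild type and 125 and 136 in the knockout (log2 -1.11, SE 0.34, limma adjusted p = 1). Dnajb1, the J-domain partner of the inducible HSP70, measured 661 and 726 against 288 and 524 (log2 -0.81, SE 0.33, limma adjusted p = 1). The stress-inducible Hsp90aa1 had -0.36 and the constitutive Hspa8 0.28, both without overlap of the groups. Bag3, the partner of Hspb8, measured 38.5 and 28.5 in wild type and 23.6 and 43.8 in the knockout, with groups that overlapped. The remaining genes of the family, Odf1 and Hspb9, known from testis, were below the filter, with 11.0 as their highest value.

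**Figure D4:**
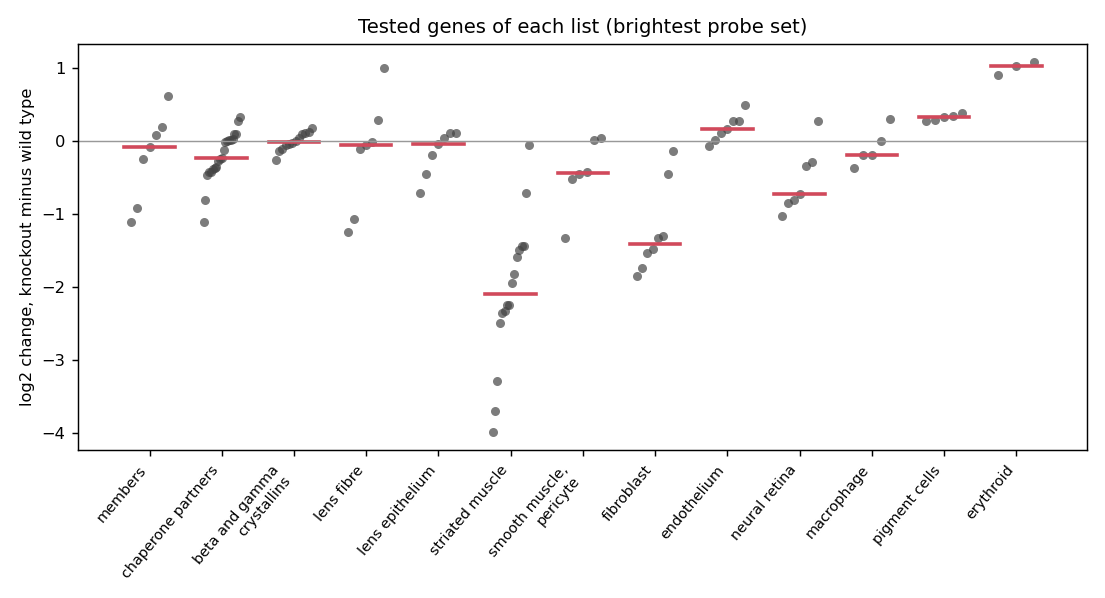
Log2 change, knockout minus wild type, of the tested genes of each list by their brightest probe set (points), with the median of the list (red line). The members spread from -1.12 to 0.61 around 0, the chaperone partners have a median of -0.23 and the striated muscle markers one of -2.09.

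For the 3 member genes whose brightest tested probe set spanned at least 1 log2 unit over the 4 arrays, the genes with the most similar profile were looked up by Euclidean distance of centred log2 values. Nearest to Hspb1 were Krt15, a keratin of stratified epithelia (distance 0.28), Myh3, the embryonic myosin heavy chain of muscle (0.42), and Dlk1 (0.42). Krt15 measured 51.1 and 18.8 in wild type and 5.70 and 13.2 in the knockout. Nearest to Hspb3 were Rasl11b (0.09), Nfe2l2, a transcription factor of the oxidative stress response (0.12), and Pdpn (0.14). Nearest to Hspb8 were Riox1 (0.12), Celf2 (0.12) and Dlc1 (0.15). With 4 arrays such closeness is a description of these arrays only.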

How the data were processed

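RNA of 4 whole-lens samples was measured on Affymetrix mouse arrays, 2 per group. The intensity values used are those the authors deposited, 1 per probe set on a linear scale; the sources used here do not name the software or background correction behind them. With limma 3.58.1 in R 4.3.3 the arrays were quantile normalized, 16 was added and log2 was taken. The 64 control probe sets were left out, and a probe set was tested if its mean log2 value was at least the median of 4.86, which left 22519. Groups were compared with limma's moderated test with a variance trend, without a block for the array number. The fit was also run on simulated arrays. Their outcome is not reported here and is not used as support. For lists, the brightest probe set stood for each gene; 34945 probe sets had 1 gene symbol, 932 several and 9160 none. Named genes were all member probe sets, Hsf4, the 4 chaperone partners with the lowest p, and the 3 genes most alike in profile. The rule also named the 3 brightest genes of each cell type list. Of these, only Acta1 and the 3 of the lens fibre list are given with values. Bag3, Odf1, Hspb9, Xist, Eif2s3y, Uty, Rpgrip1, Psmd6 and the lens fibre genes Dnase2b and Bfsp2 were named outside that rule after their values were seen. The members and lists were chosen with earlier results of these data known. Alternatives were 4 other scalings, other filters, offsets, variance models and ways to combine probe sets, the array number as a block, and leaving out each array. Centring on the crystallins, and the comparison of overlap over settings, were added after seeing the data.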

Additional observations from a re-analysis of the deposited data

How the results depend on the processing

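The precision is limited by 2 arrays per group, and the arrays differ in brightness, in their 18S controls and in Xist. The count of probe sets past the threshold was 4; it was 0 in 3 settings (as deposited, unfiltered, and genes as the mean of their probe sets), 15 with median centring, 39 with crystallin centring and 317 with the replicate block, and 5 to 663 when 1 array was left out. The count among the members was 0, and 0 to 1 when 1 array was left out. With the replicate block it was 2, both of Hspb1 (log2 -1.12 and -1.26, adjusted p = 0.000723 and 0.00170), and 2 chaperone partners passed, Dnajb1 and Dnajb2. That fit drew each variance from the shared trend alone, so its p-values hold nothing of a gene's own spread. The labels do not say what the numbers share. The deviations of same-numbered arrays from their group means had a correlation of 0.43. Over the probe sets tested, log2 values of wild type and labelled knockout correlated at 0.975 for the arrays numbered 1 and 0.940 for those numbered 2. Within the groups the correlation was 0.951 for wild type and 0.923 for the labelled knockout. The main test has no term for the number. The count of member probe sets without overlap, 8, was 1 with values as deposited, 4 with median centring and 4 with trimmed-mean scaling. It was 5 with cyclic loess and 6 with crystallin centring. The share of all probe sets without overlap was taken only under quantile normalization. The members' median log2 change was -0.42 with values as deposited, -0.25 with median centring, -0.30 with crystallin centring and 0.16 with trimmed-mean scaling, and the chaperone partners' median was -0.62, -0.45 and -0.50 in the first 3 of these, where the median of all probe sets tested was below 0 as well; it was -0.14 with trimmed-mean scaling and -0.12 with an offset of 64. The sign turned for Cryaa with values as deposited (-0.017), for Cryab with trimmed-mean scaling (0.17 and 0.24) and cyclic loess (0.0066 and 0.086), and for Hspb6 with values as deposited (-0.38), median centring (-0.21) and crystallin centring (-0.26). For Hspb2 it turned without wild-type array 2 (0.071) and without labelled knockout array 1 (0.32), over a range of -0.48 to 0.32 when 1 array was left out, and within number 2 (0.17). The cause of these shifts was not tested.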
